A study of Rattus norvegicus with 6 samples.

Results

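The genes described here carry calcium ions across retinal membranes or tune the channels that do: the voltage-gated calcium channel subunits, the calcium-binding proteins that regulate those channels, the pumps and release channels of the internal stores, and the pumps and exchangers that remove calcium from the cell. They were chosen by a rule on symbols, set with earlier results of these data known. Members are all genes whose symbol, in either case, starts with Cacn, or is Cabp, Atp2a, Atp2b, Slc8a, Slc24a, Ryr or Itpr followed by digits. This gave 53 genes of 19623 symbols, 1 table row each. By role, 13 are extrusion genes, 26 entry genes, 9 store genes and 5 calcium-binding proteins. Roles were set by family. The entry genes thus include all Cacng genes, and the extrusion genes include Slc24a5 and Slc24a6, which act inside cells. Of the 53 genes, 52 matched a RefSeq gene by symbol and Slc24a6 matched Slc8b1 as a synonym.

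The series holds RNA sequencing of rat neural retina at postnatal day 60, with 6 samples in 3 groups of 2. Group RCShNPCs comprises Royal College of Surgeons (RCS) rats given human neural progenitor cells under the retina at postnatal day 21. Group RCSsham comprises RCS rats, and group LEsham Long Evans rats, whose surgery delivered only the carrier medium. RCS rats lose their photoreceptors because the pigment epithelium fails to clear shed outer segments, so all RCS samples share that strain's defect. Only the portion of retina bearing the graft, or its counterpart in sham eyes, was taken. The table analysed has 1 FPKM column, a level per transcript length and per library size, and no column names a sample or group. Whether the column comes from 1 library or from a pool is not given in the sources used here, so the levels below are of rat retinal RNA from this series and cannot be assigned to a group. No group, strain or graft effect can be read from the column. In tissue of mixed cell types, a cell type's number and its RNA content per cell cannot be told apart. The error given is the lower and upper bound that the authors deposited with each FPKM. It is not the spread between animals.

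In darkness, photoreceptors are depolarised, and calcium flows in at their synaptic terminal through L-type channels to keep glutamate release going. In the outer segment calcium enters through the cyclic GMP-gated channel and leaves through a sodium-calcium exchanger that also uses potassium. Plasma membrane pumps clear calcium from the inner segment and terminal, while the endoplasmic reticulum takes calcium up with its own pump and releases it through ryanodine and inositol trisphosphate receptors. In humans, mutations of CACNA1F, CABP4, CACNA2D4 or SLC24A1 cause inherited disorders of rod or cone vision.

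The 4 promoters printed next belong to the highest member of each role, to show what lies upstream of the genes that dominate the results. Each run is the 250 bases before the annotated start in RefSeq build GRCr8, on the gene's own strand; Cacna2d4 is named only. Capitals mark TAATC, the core bound by the photoreceptor homeodomain factor CRX, or its reverse complement GATTA. The motif was chosen after these sequences had been seen. The windows are chrX:17568309-17568558 on the minus strand for Cacna1f, chr1:210862633-210862882 on the minus strand for Cabp4, chr12:39733269-39733518 on the plus strand for ATP2A2 and chr8:74361208-74361457 on the minus strand for Slc24a1.
Slc24a1: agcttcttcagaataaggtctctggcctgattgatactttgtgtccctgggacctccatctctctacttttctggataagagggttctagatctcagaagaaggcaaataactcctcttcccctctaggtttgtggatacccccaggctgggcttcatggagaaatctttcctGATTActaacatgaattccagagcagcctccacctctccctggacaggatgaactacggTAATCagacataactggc
Cabp4: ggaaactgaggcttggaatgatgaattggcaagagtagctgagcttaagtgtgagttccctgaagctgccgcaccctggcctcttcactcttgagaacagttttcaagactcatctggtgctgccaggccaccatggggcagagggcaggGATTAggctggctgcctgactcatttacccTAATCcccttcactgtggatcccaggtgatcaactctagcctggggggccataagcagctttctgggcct
Cacna1f: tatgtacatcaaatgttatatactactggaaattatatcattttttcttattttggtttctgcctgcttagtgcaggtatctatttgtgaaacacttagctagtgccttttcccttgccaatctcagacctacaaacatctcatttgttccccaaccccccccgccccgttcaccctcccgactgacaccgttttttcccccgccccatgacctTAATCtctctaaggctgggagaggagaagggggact
ATP2A2: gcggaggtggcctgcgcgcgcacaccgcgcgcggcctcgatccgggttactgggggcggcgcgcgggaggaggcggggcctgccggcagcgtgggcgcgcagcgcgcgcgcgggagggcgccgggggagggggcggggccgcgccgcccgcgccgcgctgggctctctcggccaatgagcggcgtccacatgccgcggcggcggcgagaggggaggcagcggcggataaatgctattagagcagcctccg

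The Slc24a1 window held 2 matches of TAATC, with 72 and 13 bases between match and start. Cabp4 held 2, at 95 and 65 bases, both extended to the longer form TAATCC, and Cacna1f held 1, at 31 bases. ATP2A2 held none. Base composition also set these windows apart: GC content was 47.2% for Slc24a1, 54.4% for Cabp4, 45.6% for Cacna1f and 80.0% for ATP2A2, which had 45 CG dinucleotides against 1, 1 and 5 in the same order. Promoters were found for 40 members, in 46 windows. At least 1 TAATC on either strand was present in 7 of these 40 genes, or 17.5%, against 21.7% of all 27457 genes with a window. For TAATCC the counts were 5 of 40, or 12.5%, against 6.95%. Besides Cabp4, the TAATCC genes were Cabp2, Ryr2, Ryr3 and SLC24A4, which differ widely in level. The median GC content was 65.0% over the members' windows and 51.2% over all windows. Across the 40 members, Spearman's rho between GC content and FPKM was -0.00075, given as a description over genes that share a table. A match describes letters in 1 annotated window, and the start used in retina may be another.

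Most of these genes were detected, and a few stood far above the rest. In all, 43 of the 53 members reached 1 FPKM, against a background of 61.0% of all symbols, and 16 reached 10 FPKM, against 28.9%. The median member was at 6.08 FPKM, while the median of all symbols was 3.17 FPKM. The highest were Slc24a1 at 251 FPKM, which ranked 94th of 19623 symbols, and Cabp4 at 176 FPKM, which ranked 170th. Next came ATP2A2, Atp2b1, Cacna1f and Cacna2d4, between 51.9 and 61.2 FPKM. Together the 53 genes made up 0.292% of all FPKM in the table, and Slc24a1 alone made up 25.1% of the members' sum. Cacna1f, Cacna2d4, Cabp4 and Slc24a1, the 4 genes set as markers of the list for their known part in photoreceptors, each led their own family. The 4 photoreceptor markers read from outside the list were higher still, from 996 FPKM for Rom1 to 6316 FPKM for Gnat1. The 5 bipolar cell markers lay between 15.1 and 113 FPKM.

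Just above the 1 FPKM minimum lay Cacna1e at 1.11 FPKM and Ryr3 at 1.23 FPKM. Just below it lay Slc24a6 at 0.858 FPKM and Cacng8 at 0.763 FPKM. The bounds of Cacna1e, Ryr3, Slc24a6, Cacng8 and Slc24a5 spanned 1 FPKM, so the side on which these 5 genes fall is uncertain.

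**Figure D1:**
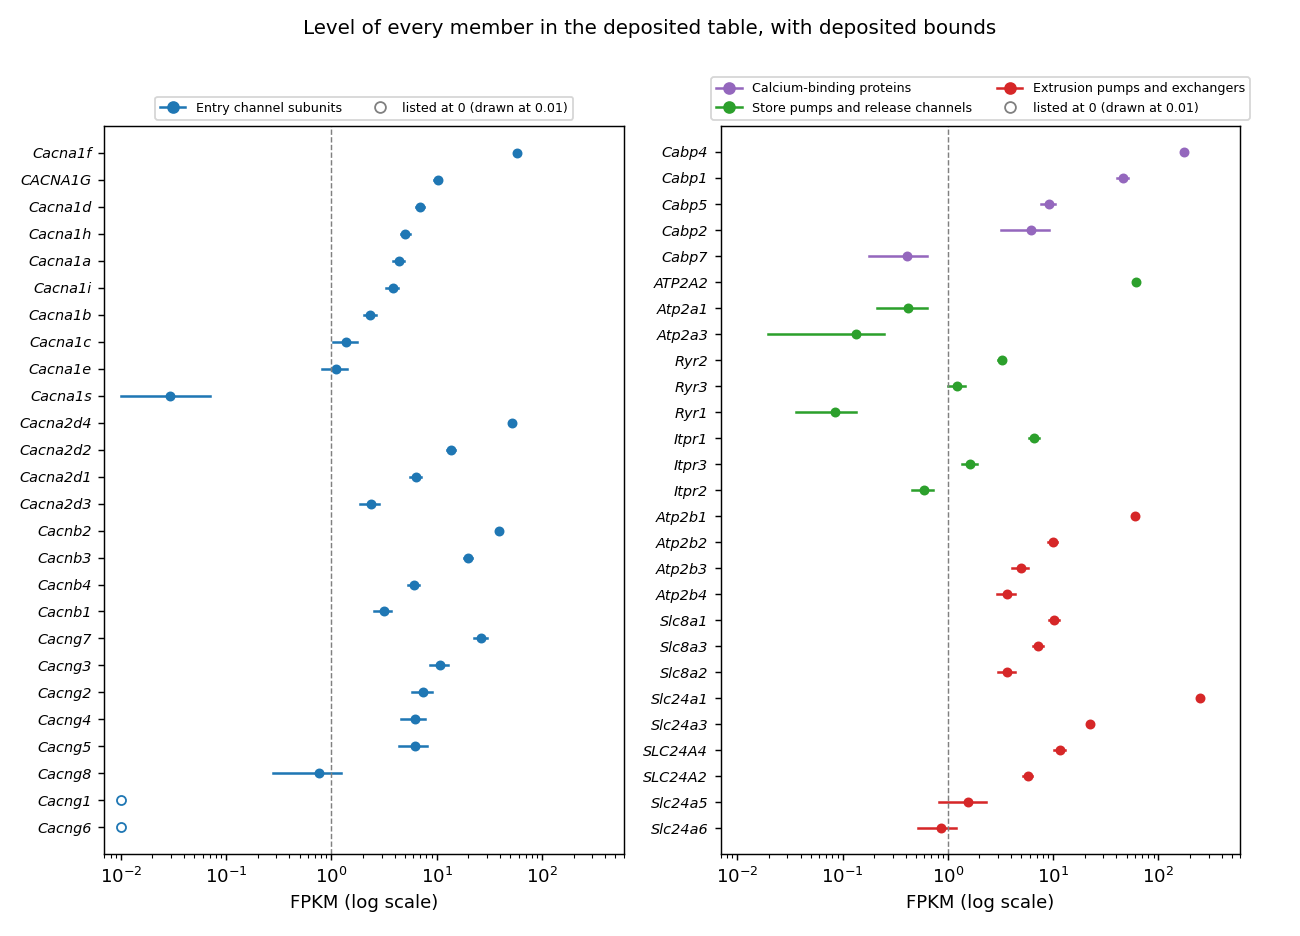
FPKM of all 53 members on a log axis, grouped by role and ordered by level within each family, with points at the deposited FPKM and bars from its lower to its upper bound (a bound under 0.01 is drawn at 0.01). Slc24a1 at 251 FPKM and Cabp4 at 176 FPKM lie farthest right, and Cacng1 and Cacng6 are listed at 0; the dashed line is at 1 FPKM.

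The pore-forming subunits decide which type of calcium channel a cell has. Cacna1f, the L-type pore of photoreceptor and bipolar cell terminals, stood at 57.7 FPKM, with deposited bounds of 55.9 and 59.5 FPKM. Its row, ENSRNOG00000010348, lies at chrX:16504179-16532638 in build rn5. The next pore was CACNA1G, a T-type channel that opens near the resting potential, at 10.3 FPKM (9.44 to 11.1). Cacna1f was thus 5.63 times CACNA1G, with a 95% counting interval of 5.18 to 6.12. It made up 62.0% of the summed FPKM of the 10 pore genes.

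Other L-type pores were lower. Cacna1d, the L-type pore of inner hair cells and of neurons, was at 6.99 FPKM (6.33 to 7.65), and Cacna1f exceeded it 8.26 times (7.49 to 9.10). Cacna1c, the main L-type pore of heart and brain, was at 1.39 FPKM (1.03 to 1.75). Cacna1s, the pore of skeletal muscle, was at 0.0295 FPKM (0 to 0.0711), which rests on an implied 2 fragments. The L-type genes together held 71.0% of the pore sum, and 87.3% of that L-type share was Cacna1f.

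T-type pores followed, with 20.5% of the pore sum. Beside CACNA1G, Cacna1h was at 5.06 FPKM (4.59 to 5.53) and Cacna1i at 3.81 FPKM (3.31 to 4.32). The high-voltage pores of most central synapses were lower still, at 8.42% of the pore sum. Cacna1a, the P/Q-type pore, was at 4.39 FPKM (3.83 to 4.94), Cacna1b, the N-type pore, at 2.35 FPKM (2.06 to 2.63) and Cacna1e, the R-type pore, at 1.11 FPKM (0.811 to 1.401). In the order of the pores, the bounds of Cacna1h and Cacna1a, of Cacna1a and Cacna1i, and of Cacna1c and Cacna1e overlapped. The other neighbours in that order did not.

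Among auxiliary subunits, the leading genes Cacna2d4, Cacnb2 and Cacng7 held 69.7%, 57.5% and 45.6% of their families' summed FPKM. Alpha2delta subunits lie outside the membrane and help bring channels to the synapse. Cacna2d4, the partner of the photoreceptor channel, was at 51.9 FPKM (49.6 to 54.1), which was 3.76 times Cacna2d2 (3.43 to 4.13). Cacna2d2 stood at 13.8 FPKM (12.6 to 15.0), Cacna2d1, a binding target of gabapentin, at 6.38 FPKM (5.64 to 7.13), and Cacna2d3 at 2.36 FPKM (1.86 to 2.86). Beta subunits bind the pore inside the cell. Cacnb2, needed for photoreceptor transmission in mice, led at 39.5 FPKM (37.5 to 41.5). It was 1.98 times Cacnb3 (1.80 to 2.17), which stood at 20.0 FPKM (18.3 to 21.7). Cacnb4 followed at 6.08 FPKM (5.34 to 6.83) and Cacnb1, the muscle beta subunit, at 3.13 FPKM (2.55 to 3.71). No neighbours within the alpha2delta family or within the beta family had overlapping bounds.

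The genes that are known to form the photoreceptor channel lay within 1.46 times of each other, and no interval of their ratios included 1. Such nearness was not particular to them, since ATP2A2 was 1.03 times Atp2b1. Cacna1f was 1.11 times Cacna2d4 (1.06 to 1.17) and 1.46 times Cacnb2 (1.38 to 1.55). Cacna2d4 was 1.31 times Cacnb2 (1.23 to 1.401). Cabp4, whose protein binds this channel and shifts its opening to lower voltages, was 3.04 times Cacna1f (2.90 to 3.20). These ratios compare transcript levels per length, not protein.

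Gamma subunits are a mixed family, since Cacng1 and Cacng6 belong to muscle channels while most others escort AMPA-type glutamate receptors. Cacng7 led at 26.3 FPKM (22.6 to 30.0), 2.44 times Cacng3 (1.92 to 3.11). Cacng3 was at 10.8 FPKM (8.61 to 12.9), Cacng2, or stargazin, at 7.43 FPKM (5.81 to 9.05), Cacng4 at 6.23 FPKM (4.62 to 7.84) and Cacng5 at 6.23 FPKM (4.43 to 8.02). From Cacng3 down to Cacng5, each gene's bounds overlapped those of the next. Cacng8 was at 0.763 FPKM (0.281 to 1.25). Cacng1 and Cacng6 were listed at 0, as were 23.6% of all symbols.

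Calcium-binding proteins of the Cabp family resemble calmodulin and compete with it on channels. Cabp4 was at 176 FPKM (169 to 183), on an implied 2685 fragments. Its row, ENSRNOG00000022044, lies at chr1:226254102-226258660 in build rn5. Cabp1, found in inner retinal neurons and in brain, was at 46.0 FPKM (40.4 to 51.7), so that Cabp4 was 3.82 times Cabp1 (3.36 to 4.33). Cabp5, a protein of rod bipolar and some cone bipolar cells, was at 9.10 FPKM (7.66 to 10.5). Cabp2 was at 6.17 FPKM (3.22 to 9.12), with bounds that overlapped those of Cabp5. Cabp7, whose protein sits on the Golgi, was at 0.409 FPKM (0.178 to 0.640). Cabp4 held 74.0% of the family's summed FPKM.

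Among the store genes a single pump dominated. ATP2A2, which encodes the endoplasmic reticulum pump of most tissues, was at 61.2 FPKM (58.4 to 64.0) and held 81.5% of the summed FPKM of the 9 store genes. Its row, ENSRNOG00000001285, lies at chr12:41435156-41482924 in build rn5. Atp2a1, the fast skeletal muscle pump, was at 0.423 FPKM (0.211 to 0.634) and Atp2a3, a pump of blood and epithelial cells, at 0.133 FPKM (0.0198 to 0.247).

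The release channels were far below the pump. Itpr1, the inositol trisphosphate receptor of neurons, was at 6.60 FPKM (5.92 to 7.28), and ATP2A2 was 9.27 times as high (8.30 to 10.4). Itpr3 was at 1.62 FPKM (1.36 to 1.88) and Itpr2 at 0.594 FPKM (0.457 to 0.732). Of the ryanodine receptors, Ryr2, the heart and brain form, was at 3.24 FPKM (2.97 to 3.51). ATP2A2 was 18.9 times Ryr2 (17.2 to 20.7), and Itpr1 was 2.04 times Ryr2 (1.79 to 2.32). Ryr3 was at 1.23 FPKM (0.997 to 1.46) and Ryr1, the skeletal muscle form, at 0.0847 FPKM (0.0358 to 0.134). Within each receptor family no neighbouring levels had overlapping bounds.

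Of the members best known from skeletal muscle, Cacna1s, Cacng1, Cacng6, Atp2a1 and Ryr1 ran from 0 to 0.423 FPKM, while Cacnb1 was at 3.13 FPKM. Skeletal muscle markers were low too. Of 8 such markers, 2 reached 1 FPKM, against 61.0% of all symbols. The highest was Mylpf at 3.17 FPKM, and Myh4 was listed at 0. The summed level of the 8 markers was 5.99 FPKM. Among 3 matched smooth muscle markers the highest was Tagln at 2.93 FPKM, and Cnn1 was listed at 0. The part of muscle RNA in the levels of these members was not tested.

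Extrusion genes held the highest member. Slc24a1, the potassium-dependent exchanger of the rod outer segment, was at 251 FPKM (244 to 257), on an implied 6023 fragments. Its row, ENSRNOG00000026904, lies at chr8:70111170-70136142 in build rn5. It was 43.4 times SLC24A2 (39.3 to 47.9), the exchanger of cones and of neurons, which stood at 5.78 FPKM (5.21 to 6.35). Slc24a3, a widely expressed form, was at 22.5 FPKM (21.1 to 23.9), and SLC24A4, known from olfactory neurons and from enamel, at 11.5 FPKM (10.1 to 12.9). Slc24a1 exceeded them 11.2 times (10.4 to 11.9) and 21.8 times (19.3 to 24.6). It held 85.6% of the family's sum.

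Slc24a5 and Slc24a6 act inside cells. Slc24a5, an exchanger of pigment cell organelles, was at 1.56 FPKM (0.823 to 2.29). Pigment epithelium markers in the same table were uneven, with 3 of 4 at 1 FPKM or more, against 61.0% of all symbols. Rpe65 was at 20.7 FPKM (18.8 to 22.5), Lrat at 3.94 FPKM and Best1 at 0.270 FPKM. Rlbp1, which Müller glia also express, was at 114 FPKM. The part of pigment epithelium RNA in the Slc24a5 level was not tested. Slc24a6, the mitochondrial exchanger that RefSeq now calls Slc8b1, was at 0.858 FPKM (0.521 to 1.19).

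Plasma membrane pumps move calcium out at the cost of ATP. Atp2b1, the widespread form, was at 59.7 FPKM (57.1 to 62.3), which was 5.98 times Atp2b2 (5.38 to 6.66). Atp2b2, known for its role in hair cells and cerebellum, was at 9.98 FPKM (8.98 to 10.97). Atp2b3 was at 4.92 FPKM (4.10 to 5.75) and Atp2b4 at 3.62 FPKM (2.93 to 4.31), with overlapping bounds. The exchangers without potassium all lay below Atp2b1, though not all below the other pumps, and were closer to each other. Slc8a1, the heart form, was at 10.2 FPKM (9.07 to 11.3), Slc8a3 at 7.24 FPKM (6.49 to 7.99) and Slc8a2, a brain form, at 3.66 FPKM (3.004 to 4.31). Slc8a1 was 1.41 times Slc8a3 (1.21 to 1.63), and Slc24a1 was 24.6 times Slc8a1 (22.0 to 27.5).

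Across the families, 42 pairs of members stood next to each other in the order of levels. The deposited bounds overlapped in 11 pairs, among them the pair listed at 0, and lay apart in 31.

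The precision differed widely between members. The deposited bounds imply between 2 and 6023 fragments for the 51 members above 0, with a median of 227, and 30292 fragments in all, or 0.495% of the 6124332 implied over the table. In 8 members the implied number was under 25. The upper bound lay within 10% of the FPKM in 16 members. Level and precision did not always go together: Ryr2 at 3.24 FPKM rested on an implied 581 fragments, whereas Cabp2 at 6.17 FPKM rested on 17. Implied fragments per unit of FPKM differed 63.3-fold between these genes, the widest gap among the members. All ratio intervals in the text take the bounds as 2 standard errors of counting.

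**Figure D2:**
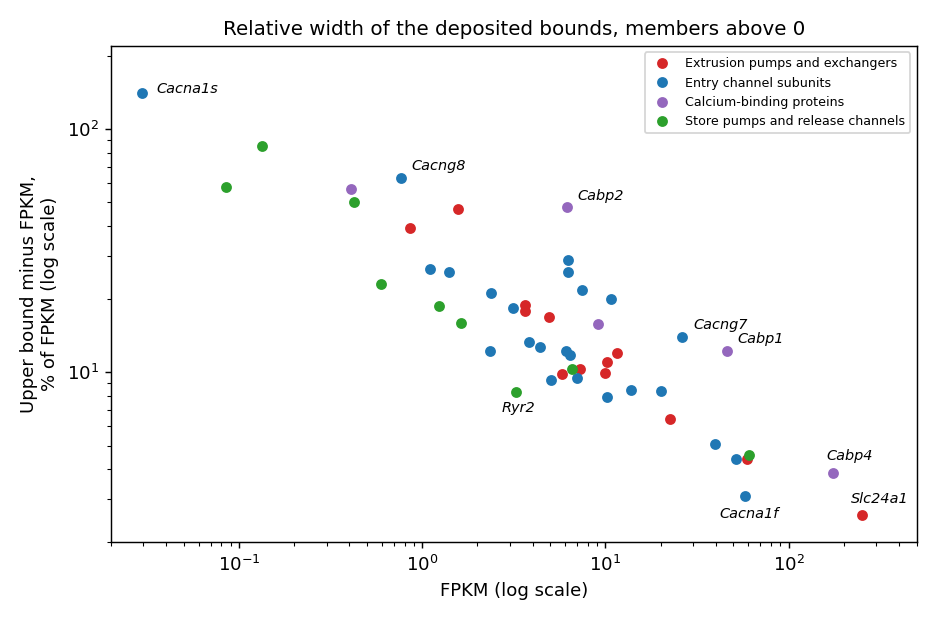
Distance from FPKM to the deposited upper bound, in percent of the FPKM, against FPKM for the 51 members above 0, both on log axes, with a point per gene coloured by role. The width tends to fall with the level, from 141% for Cacna1s to 2.58% for Slc24a1. It is nonetheless smaller for Ryr2 at 3.24 FPKM (8.30%) than for Cabp2 at 6.17 FPKM (47.9%).

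Set side by side, extrusion genes summed to 392 FPKM (385 to 400.1), entry genes to 294 FPKM (287 to 301), calcium-binding proteins to 237 FPKM (228 to 247) and store genes to 75.1 FPKM (72.2 to 78.1). The extrusion sum was 1.33 times the entry sum, with a counting interval of 1.296 to 1.38. That order rested on 1 gene. With the highest member of each role left out, the extrusion sum was 142 FPKM and the entry sum 236 FPKM, a ratio of 0.599. It also turned to 0.895 when implied fragments, which are not divided by length, were summed. The entry genes of the list do not include the rod cyclic GMP-gated channel. Its subunit genes Cnga1 and Cngb1 stood at 293 FPKM (286 to 300.1) and 138 FPKM (134 to 141), and adding them to the entry genes, a setting chosen after seeing the data, gave 0.541.

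Store genes were lowest by sum and by median. Extrusion genes were 5.22 times store genes in the sum (5.01 to 5.45), and entry genes 3.91 times (3.74 to 4.09). The medians were 7.24 FPKM for extrusion, 6.16 FPKM for entry and 1.23 FPKM for store genes, and 9.10 FPKM for the calcium-binding proteins. Of the extrusion genes 12 of 13 reached 1 FPKM, and of the entry genes 22 of 26. So did 4 of 5 calcium-binding proteins and 5 of 9 store genes. The share of all symbols was 61.0%, and the store count lay near it. The leading pumps of the store and of the plasma membrane were close in level, ATP2A2 being 1.03 times Atp2b1 with an interval of 0.963 to 1.09. Slc24a1 was 4.20 times Atp2b1 (3.999 to 4.42). In the rod outer segment, the exchanger and the channel are known to bind each other. Slc24a1 was 1.82 times Cngb1 (1.76 to 1.89), and Cnga1 was 1.17 times Slc24a1 (1.13 to 1.21).

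**Figure D3:**
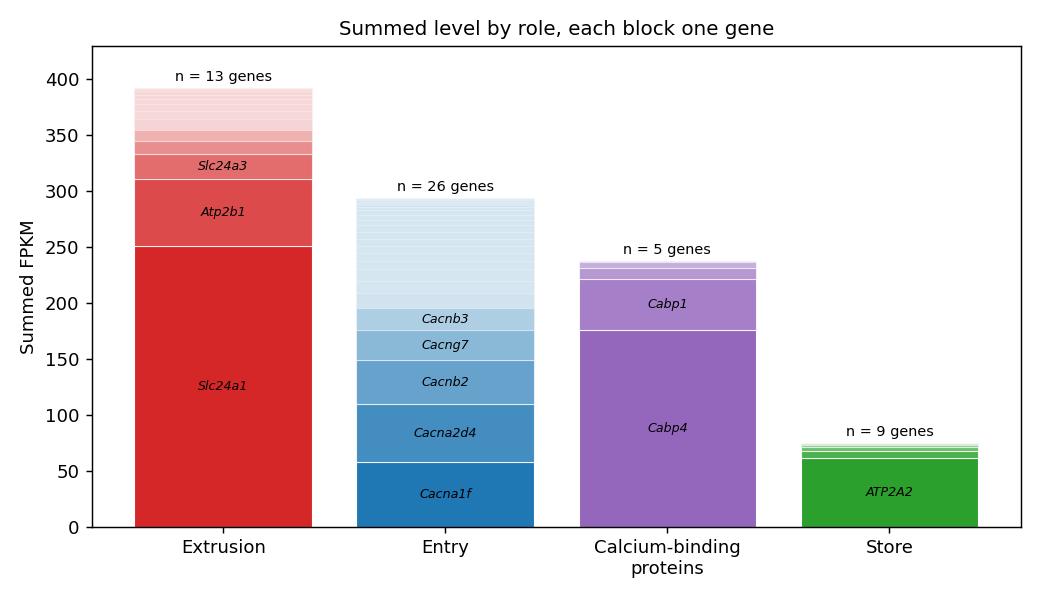
Summed FPKM of extrusion genes, entry genes, calcium-binding proteins and store genes, with each block a gene in falling order and blocks above 17 FPKM named. Slc24a1 fills 63.9% of the extrusion bar, Cabp4 74.0% of the calcium-binding protein bar and ATP2A2 81.5% of the store bar, while Cacna1f fills 19.6% of the entry bar.

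Several members lie side by side in the genome, and their levels differed. On chromosome 4, Cacna1c and Cacna2d4 are 29.2 kb apart, at 1.39 and 51.9 FPKM, so that Cacna2d4 was 37.3 times its neighbour (28.9 to 48.2). On chromosome 1, Cabp2 and Cabp4 are 48.6 kb apart, and Cabp4 was 28.5 times as high (17.8 to 45.6). Also on chromosome 1, Cacng6 was listed at 0, Cacng8 was at 0.763 FPKM and Cacng7 at 26.3 FPKM, with gaps of 9.06 and 25.7 kb. On chromosome 10, Cacng1 was listed at 0 while Cacng4 and Cacng5 were equal at 6.23 FPKM. Of the 6 neighbouring pairs in these stretches, 5 had bounds that lay apart.

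**Figure D4:**
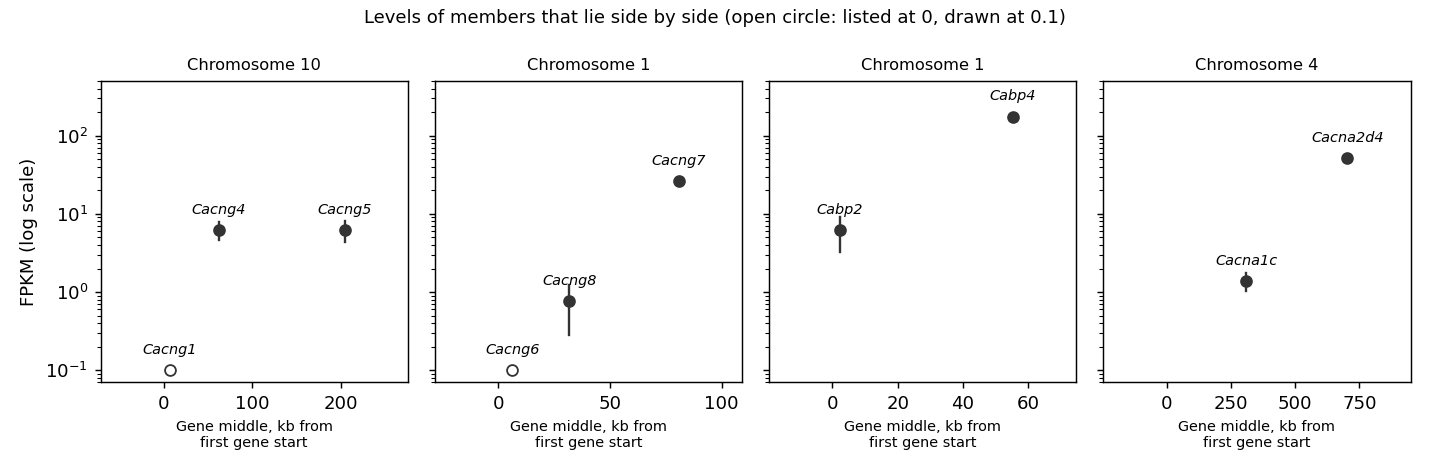
FPKM on a log axis of members that lie side by side, against the distance of the gene's middle from the start of the first gene, in 4 stretches of build rn5, with bars for the deposited bounds. Cabp4 and Cacna2d4 stand well above Cabp2 and Cacna1c, and Cacng4 and Cacng5 are level with each other.

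Rows of 16 members overlap another row of the table, and whether counting used strand is not given in the sources used here. In 8 of them the other row is a gene with its own symbol other than a small RNA. Cacna2d4 encloses Lrtm2, which was at 8.39 FPKM, and Cacna1c shares 18880 bp with Dcp1b at 5.75 FPKM. Cacnb3 shares its whole span of 9538 bp with Ddn, which was at 0.668 FPKM. Atp2a3 at 0.133 FPKM shares 20993 bp with Itgae at 0.953 FPKM. Cabp7 shares 768 bp with Zmat5 at 24.9 FPKM, and Slc24a5 shares 991 bp with Myef2 at 35.2 FPKM. For such pairs, and most for low members beside a higher gene, the split of reads is uncertain. Cacnb3 lies on chromosome X and Atp2b3 on chromosome 1 in the table's rn5 coordinates, but on chromosomes 7 and X in RefSeq build GRCr8. The other 51 members have the same chromosome in both.

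Other genes that handle calcium were read from a list of 27, of which 1, Slc8b1, is the member Slc24a6. Of the remaining 26, 20 reached 1 FPKM, against 61.0% of all symbols. The median was 6.08 FPKM for the members and 6.44 FPKM for these 26 genes. Of genes for calmodulin, the general calcium sensor, Calm2 was at 242 FPKM (233 to 251) and Calm3 at 118 FPKM (111 to 124). Calm2 was 1.38 times Cabp4 (1.304 to 1.45).

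All 5 genes of store-operated entry, in which a store sensor opens a plasma membrane channel, reached 1 FPKM, against 61.0% of all symbols. The sensor genes Stim1 and Stim2 were at 16.4 FPKM (15.1 to 17.6) and 6.88 FPKM (6.17 to 7.59), and the channel genes Orai1, Orai2 and Orai3 lay between 3.16 and 5.50 FPKM. Among mitochondrial genes, the uniporter subunit Smdt1 was at 110 FPKM (92.8 to 127) and Letm1, an inner membrane protein, at 21.2 FPKM (19.5 to 22.9). The uniporter pore Mcu was at 11.9 FPKM (10.1 to 13.7). The Golgi pump Atp2c1 was at 26.7 FPKM (22.9 to 30.4) and Atp2c2 at 0.0289 FPKM (0 to 0.0866). ATP2A2 was 2.30 times Atp2c1 (1.98 to 2.66).

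Proteins of the store lumen and regulators of the store varied widely in level. Calr, or calreticulin, the calcium buffer of the endoplasmic reticulum, was at 142 FPKM (138 to 147), and Fkbp1a, which binds release channels, at 43.1 FPKM (39.8 to 46.4). Fkbp1b, another such binding protein and a partner of the heart release channel, was at 12.8 FPKM (7.06 to 18.5). The calsequestrin genes Casq1 and Casq2, which encode calcium buffers of muscle stores, were at 1.87 and 0.144 FPKM. The junctophilin genes Jph1, Jph2, Jph3 and Jph4, which tie the store to the plasma membrane, were at 0.144, 0.0205, 5.99 and 3.70 FPKM. Sln, a pump inhibitor of muscle, was at 0.808 FPKM. Pln, or phospholamban, the inhibitor of the pump encoded by ATP2A2 in heart, was listed at 0. Of the 11 genes in that group, 6 reached 1 FPKM, which is near the 61.0% of all symbols.

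**Figure D5:**
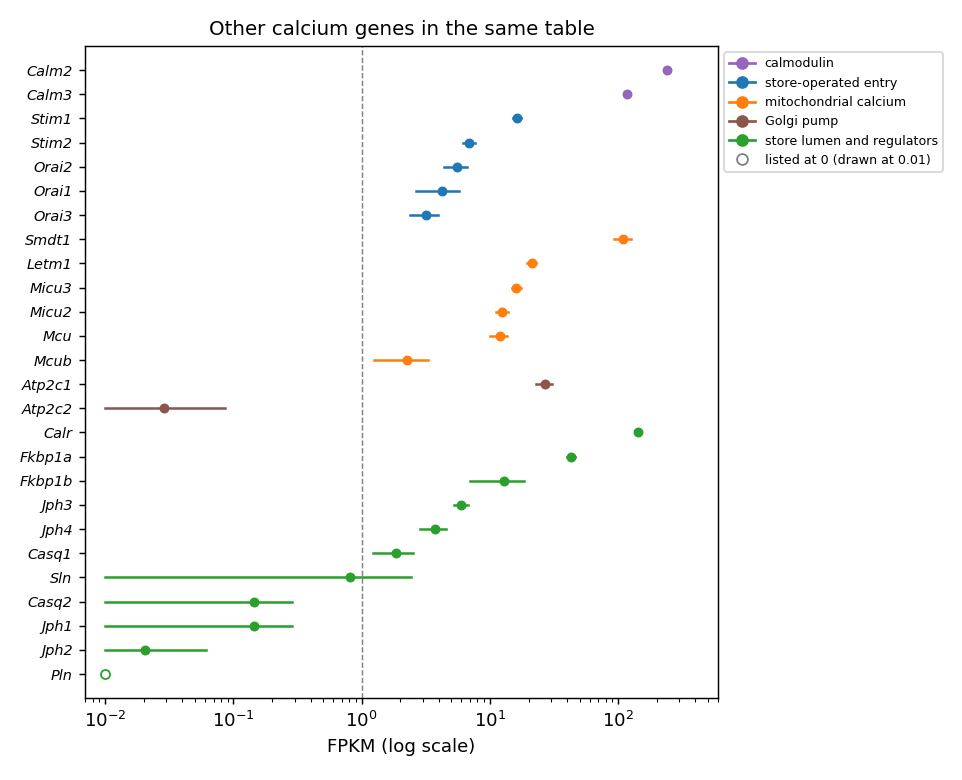
FPKM on a log axis of 26 other calcium genes, in 5 groups ordered by level, with bars for the bounds (a bound under 0.01 is drawn at 0.01) and a dashed line at 1 FPKM. Calm2 at 242 FPKM is the highest of those drawn, and Pln is listed at 0.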

How the data were processed

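RNA of rat neural retina was sequenced in 6 samples in 3 groups, and groups were taken from the sample titles. Per the labels' protocols, RNA was purified on columns and libraries were built with an Ion Total RNA-seq kit. The authors deposited 1 FPKM value per gene with a lower and an upper bound, in a table of 26406 rows in the format of Cufflinks, per the file headers. Cufflinks 2.0.8 and build rn5 are named in the submitters' processing notes. Not given in the sources used here: aligner, annotation, library depth, confidence level of the bounds, and any pooling. The column names no sample, so the planned limma fit of groups was not run, and there is no mean, SD or p-value.

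FPKM of rows sharing a symbol, ignoring case, were summed. The tools were pandas 2.3.3 and numpy 2.4.6, beside scipy 1.17.1, under Python 3.11.15. Bounds were read as 2 standard errors, errors of sums were added in quadrature, and 95% intervals of ratios were taken on the log scale. The implied fragment number is the square of 2 times FPKM over the distance to the upper bound. A check on simulated data built its bounds by the same formula, so it covers the arithmetic alone. Whether the deposited bounds reflect counting error was not tested. Intervals cover counting error only. Promoters come from RefSeq build GRCr8. All members are named. Some genes of the list of other calcium genes are not reported here. Of those kept, the text names the 2 highest of each group and those at 0, with further ones chosen after their values were seen. Members and lists were chosen with earlier results of these data known. Coordinates are as the table gives them.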

Additional observations from a re-analysis of the deposited data

How the results depend on the processing

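The count of 43 members at 1 FPKM or more stayed within 1.5 times at a minimum of 0.5, 2 or 5 FPKM (46, 38 and 29) and with the lower bound in place of the FPKM (40). The highest row per symbol, rows of status OK and rows spanning 300 bp or more changed no value, because every member meets them, so they say nothing about stability. For the extrusion over entry, entry over store and extrusion over store ratios, the other settings gave these values. Leaving out the highest member of each role gave sums at 0.599 (reversed), 16.97 and 10.2, and medians at 1.07, 6.68 and 7.15. Implied fragments gave sums at 0.895 (reversed), 3.88 and 3.47, and medians at 1.53, 1.88 and 2.88. Members at 1 FPKM or more alone left the sums within counting error and gave medians at 1.36, 1.95 and 2.66. Without Cacng genes, the ratios to entry were 1.66 and 3.15 for sums, 1.299 and 4.54 for medians. With Cacna1 genes alone as entry they were 4.22 and 1.24 for sums, 1.77 and 3.34 for medians. Of the settings added after seeing the data, Cnga1 and Cngb1 in the entry list gave 0.541 (reversed) and 9.65 for sums, 1.16 and 5.08 for medians. Leaving out Slc24a5 and Slc24a6 gave medians of extrusion at 1.62 times entry and 8.13 times store. Without the 8 members that overlap a named gene, sums were at 1.81 and 2.89 for the ratios to entry, and medians at 1.399, 3.79 and 5.31. Extrusion and entry stayed above store in every setting. No paired analysis was possible because the single FPKM column is tied to no sample. The alternatives for the group fit (pseudocount, replicate numbers, leaving out a replicate) were not run for the same reason.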
